A study of Rattus norvegicus with 4 samples.

Results

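The AP-1 and ATF transcription factor family was followed in the RNA-seq of cultured rat Schwann cells (SCs) through 10 genes chosen by name, and all 10 were found among the 17949 genes counted. These were Jun, Junb and Jund, which encode the Jun proteins, Fos, Fosb, Fosl1 and Fosl2, which encode the Fos proteins, Atf3 and Atf2, which encode ATF proteins, and Maff, which encodes a small Maf protein. Primary SCs from rat sciatic nerve were kept in medium with 10% fetal bovine serum, 4 μM forskolin and 5 ng/ml heregulin-β1 and were infected for 48 h, in the presence of polybrene and at 2 viral units per cell, with one of 2 lentiviruses. One carried the antisense RNA of the Egr2 promoter (Lenti-AS, n = 2) and the other, the control, carried GFP (Lenti-GFP, n = 2). The antisense vector bears a DsRed reporter in place of GFP, so the groups differ in the reporter as well as in the antisense RNA. No genotype, animal age or drug treatment separates the groups, and cells without virus were not analysed here.

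AP-1 is a dimer of leucine zipper proteins that binds DNA through a basic region next to the zipper. Jun proteins can pair with one another or with Fos proteins, whereas Fos proteins need a partner, and ATF and Maf proteins can also join with some of these partners. In SCs, c-Jun, the product of Jun, is known as a driver of the repair state that follows nerve injury and as an antagonist of Egr2 in the control of myelination. The question put to the counts was whether expression of the Egr2-AS was accompanied by a different level of the RNA of these factors.

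Total counts per sample lay between 74024323 and 96185890, and the smallest count of any of the 10 genes in any sample was 1017, so that counting error was at most 3.14% of a value. The study's methods call the replicates biological, and the sources used here do not say whether they came from separate animals or cultures, so p-values measure only the spread between these samples. Levels are given as CPM, the usual unit for a gene's share of the counts of its library, after scaling of the libraries by edgeR's TMM method. Of 9 SC marker genes all were at 1 CPM or more in every sample, with a summed level of 7708 to 7776 CPM in Lenti-GFP and 7966 to 9179 CPM in Lenti-AS. The 8 macrophage markers summed to at most 4.36 CPM. The 9 fibroblast markers summed to 3823 to 4270 CPM in Lenti-GFP and 2825 to 4684 CPM in Lenti-AS, almost all from the collagen genes Col1a1, Col1a2 and Col3a1. Of the 9, 3 (Dcn, Lum and Thy1) were at or under 0.0321 CPM in every sample. The other 6 were at 1 CPM or more throughout, with Pdgfra at 3.08 to 4.07, Fbln1 at 5.43 to 6.77 and Pi16 at 4.99 to 5.24 CPM. Whether some fibroblasts were present was not tested. The neuronal markers summed to 192 and 201 CPM in Lenti-GFP and to 149 and 154 CPM in Lenti-AS, almost all of it from Nefl and Tubb3, with 5 of 7 markers under 1 CPM throughout, and the 7 endothelial markers summed to 20.9 and 20.7 CPM and to 16.0 and 15.4 CPM, almost all from Tek. Both Lenti-AS libraries carried something of their own. Erythroid genes, almost all globins, reached 3002 CPM in Lenti-AS 2 against at most 7.27 CPM elsewhere, and in Lenti-AS 1 the collagen gene Col1a1 had 2131 CPM against 290 CPM in Lenti-AS 2 and 721 to 840 CPM in Lenti-GFP. With the erythroid genes left out, the direction and call of each of the 10 genes were the same. That fit drops only the rows of those genes, so it cannot show whether Lenti-AS 2 differed in other ways that bear on the 10 genes. The part that these differences between the libraries had in the results was not tested.

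Maff was the only one of the 10 genes whose change passed the test. Its level was 64.4 and 60.6 CPM in the controls (6013 and 5741 counts) and 45.0 and 44.0 CPM in Lenti-AS (3945 and 3311 counts). Both Lenti-AS values lay below both controls, and the groups were 15.6 CPM apart at their closest, against 3.84 CPM within Lenti-GFP and 0.970 CPM within Lenti-AS. Maff fell 1.40-fold, with a log2 fold change of -0.49 (standard error 0.07, 95% interval -0.66 to -0.32) and a p of 0.0389 after Benjamini-Hochberg adjustment over the 12446 genes given to edgeR's quasi-likelihood test. A call here needs an adjusted p below 0.05 together with a 1.3-fold change or more. By this rule 1 of the 10 genes was called, against 1.98% of all genes tested, and it was 1 lower gene against 0.667% of all genes called lower and none higher against 1.31%. MafF has a leucine zipper but no activation domain, so that its dimers act through the partner. DESeq2 also called Maff alone of the 10 genes (adjusted p = 2.69e-07), against 6.25% of the genes to which it gave an adjusted p. Without Lenti-GFP 1 or without Lenti-GFP 2 the log2 fold change of Maff was -0.53 to -0.44. The call was not kept there, as was the case for nearly all called genes. In a fit with the replicate number as a block the adjusted p of Maff from edgeR's test was 0.0905.

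Promoter sequences of RefSeq (assembly GRCr8, a later build than the rn6 on which the reads were counted) were matched by symbol for 7 of the 10 genes, Junb, Jund, Fosb, Fosl1, Fosl2, Atf2 and Maff. The 250 bases before the annotated start were searched on both strands for the AP-1 site TGACTCA and for the palindromic cAMP response element TGACGTCA, to which ATF and Jun-ATF dimers bind. TGACGTCA was found before 2 of the 7 genes, Maff and Jund, and before 1.59% of all 33469 promoters. TGACTCA was found before 0 of the 7 genes and before 4.05% of all promoters. The matches describe the letters of these windows only. Both windows that hold the element are shown, one of the called gene Maff and the other of Jund, which was not called, with the element in capitals. The Maff window lies on the plus strand at chr7:112792537-112792786 and the Jund window on the minus strand at chr16:18769772-18770021.
Maff: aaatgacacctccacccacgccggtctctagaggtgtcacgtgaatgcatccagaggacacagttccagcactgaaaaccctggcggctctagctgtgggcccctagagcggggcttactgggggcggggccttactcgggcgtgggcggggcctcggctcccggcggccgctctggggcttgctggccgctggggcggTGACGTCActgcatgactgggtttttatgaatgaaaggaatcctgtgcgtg
Jund: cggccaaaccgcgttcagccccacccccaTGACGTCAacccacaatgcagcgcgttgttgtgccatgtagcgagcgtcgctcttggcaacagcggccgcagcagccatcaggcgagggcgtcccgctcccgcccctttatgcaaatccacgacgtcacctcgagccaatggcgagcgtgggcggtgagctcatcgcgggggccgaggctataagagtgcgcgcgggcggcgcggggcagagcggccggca
The element lies at bases 51 to 44 before the start of Maff and at bases 221 to 214 before that of Jund. Maff was called lower, while Jund was not called and its groups overlapped. Whether the element bears on the level of either gene was not tested.

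**Figure D1:**
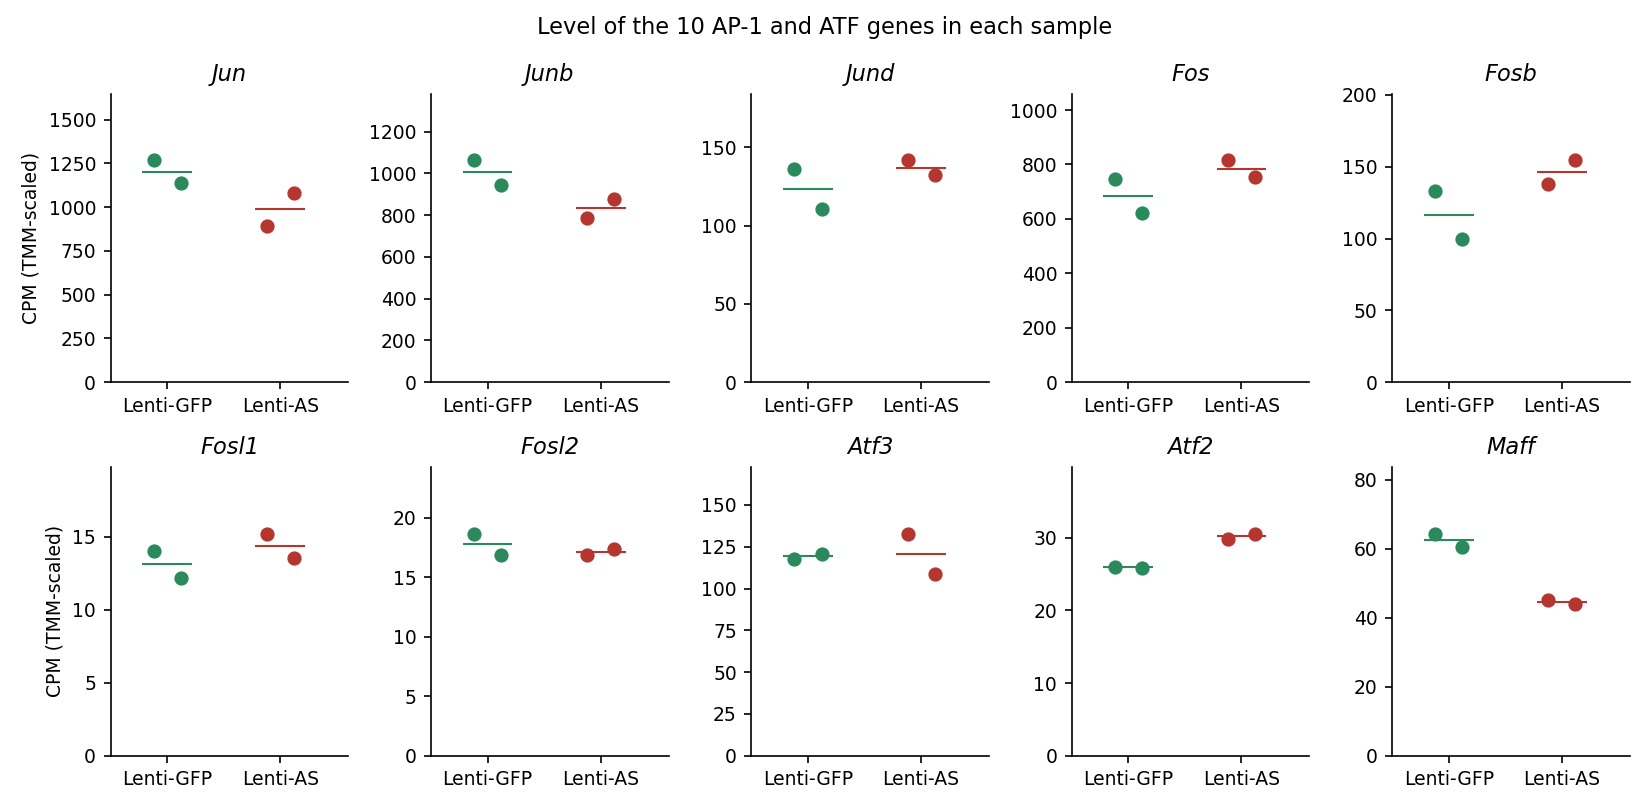
CPM (vertical axes, from 0) of each of the 10 genes in the 2 Lenti-GFP samples (green) and the 2 Lenti-AS samples (red), replicate 1 on the left of each pair, with a line at the group mean. In Maff and Atf2 the groups stand farther apart than the replicates of either group, which was not counted over all genes. Jun and Junb lie lower in Lenti-AS, and the groups of Jund, Fosl1, Fosl2 and Atf3 overlap.

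Among the Jun proteins, the RNA of Jun and Junb lay lower in Lenti-AS than in Lenti-GFP without passing the test, and that of Jund did not. Jun had 1269 and 1138 CPM in the controls and 895 and 1083 CPM in Lenti-AS. The groups did not overlap, but the 55.0 CPM between Lenti-AS 2 and Lenti-GFP 2 were fewer than the 131 CPM within Lenti-GFP and the 188 CPM within Lenti-AS. The log2 fold change of Jun was -0.28 (standard error 0.10, 95% interval -0.54 to -0.03), and the adjusted p was 0.198 from edgeR's test and 0.0538 from DESeq2. The value depended on the Lenti-AS sample used, at -0.43 without Lenti-AS 2 and -0.15 without Lenti-AS 1. In this fit, and with each of the 4 samples left out, the level of Jun RNA was not higher in Lenti-AS.

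Junb, which encodes a Jun protein known for weaker activation than c-Jun, followed Jun. It had 1063 and 946 CPM in Lenti-GFP and 788 and 878 CPM in Lenti-AS. Again both Lenti-AS samples lay below both controls, with 68.3 CPM between the nearest samples against 117 CPM and 89.9 CPM within the groups. The log2 fold change of Junb was -0.27 (standard error 0.08) with an adjusted p = 0.146 from edgeR's test. DESeq2 gave -0.27 with an adjusted p = 0.0245, under the threshold but with a change of less than 1.3-fold, so Junb was not called by either tool. An adjusted p under 0.05 in DESeq2 was reached by 13.1% of the genes to which it gave one, and here by Junb and Maff. Jund, the Jun protein gene usually held at a steady level, had 136 and 111 CPM in Lenti-GFP and 142 and 132 CPM in Lenti-AS. The samples of the groups overlapped, and the log2 fold change was 0.15 (95% interval -0.11 to 0.41; adjusted p = 0.436 from edgeR's test), from 0.01 without Lenti-GFP 2 to 0.31 without Lenti-GFP 1. The strand setting of the counting is not given, so reads from any transcript antisense to these genes could be counted with them. The Egr2-AS itself is complementary to the Egr2 promoter, and no transcript antisense to the Jun genes is described in the paper.

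The 3 tested genes closest to Jun in their pattern over the 4 samples, out of 7801 whose mean reached 10 CPM, were Prkab2, Smad6 and Col7a1, at root mean square distances of 0.0102, 0.0201 and 0.0294 in centred log2 CPM. Over 4 samples, closeness says little of any one gene. Junb ranked 21 (distance 0.0433), Fosl2 1769 and Maff 2054, while the other 6 genes ranked between 6077 and 6958.

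Of the Fos proteins, none was called, and the fitted values of Fos, Fosb and Fosl1 were above 0. Fos, an immediate early gene whose protein is short-lived, had 748 and 621 CPM in Lenti-GFP and 816 and 753 CPM in Lenti-AS. The groups were separated by 4.33 CPM, against 127 CPM within Lenti-GFP. The log2 fold change of Fos was 0.20 (95% interval -0.04 to 0.44; adjusted p = 0.302 from edgeR's test), from 0.07 without Lenti-GFP 2 to 0.34 without Lenti-GFP 1. Fosb had 133 and 99.7 CPM in Lenti-GFP and 138 and 155 CPM in Lenti-AS, a separation of 4.90 CPM against 33.5 CPM within Lenti-GFP. Its log2 fold change of 0.33 (standard error 0.14; adjusted p = 0.241 from edgeR's test) was the highest of the 10, and went from 0.14 without Lenti-GFP 2 to 0.56 without Lenti-GFP 1. Without Lenti-AS 1 the log2 fold change of Fosb was 0.41, and without Lenti-AS 2 it was 0.25.

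Fosl1 and Fosl2 encode Fra-1 and Fra-2, Fos proteins without the activation domain of Fos. Fosl1 had 14.1 and 12.2 CPM in Lenti-GFP and 15.2 and 13.5 CPM in Lenti-AS, and Fosl2 had 18.7 and 16.9 CPM and 16.9 and 17.4 CPM. In both genes the groups overlapped. The log2 fold change was 0.13 for Fosl1 (95% interval -0.14 to 0.41; adjusted p = 0.525 from edgeR's test) and -0.05 for Fosl2 (95% interval -0.26 to 0.16; adjusted p = 0.754). These intervals leave room for a change of 1.33-fold up in Fosl1. Fosl1 went from 0.03 without Lenti-GFP 2 to 0.24 without Lenti-GFP 1.

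Neither ATF gene was called. Atf2, whose protein is activated by the stress kinases JNK and p38 and pairs with c-Jun, had 26.0 and 25.8 CPM in Lenti-GFP and 29.8 and 30.6 CPM in Lenti-AS. The groups did not overlap, with 3.81 CPM between the nearest samples against 0.225 CPM and 0.733 CPM within the groups. Atf2 and Maff were the 2 genes of the family whose groups stood farther apart than the replicates of either group. The share of all genes tested that did so was not counted, so no weight is put on it. The log2 fold change of Atf2 was 0.22 (standard error 0.06, 95% interval 0.07 to 0.37), a change of 1.17-fold, with an adjusted p = 0.125 from edgeR's test and 0.101 from DESeq2. Atf3, a stress-induced gene that is also known to rise in injured SCs and neurons, had 118 and 121 CPM in Lenti-GFP and 133 and 109 CPM in Lenti-AS. The Lenti-AS samples lay on either side of the controls, and the log2 fold change was 0.02 (95% interval -0.23 to 0.26; adjusted p = 0.941 from edgeR's test).

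**Figure D2:**
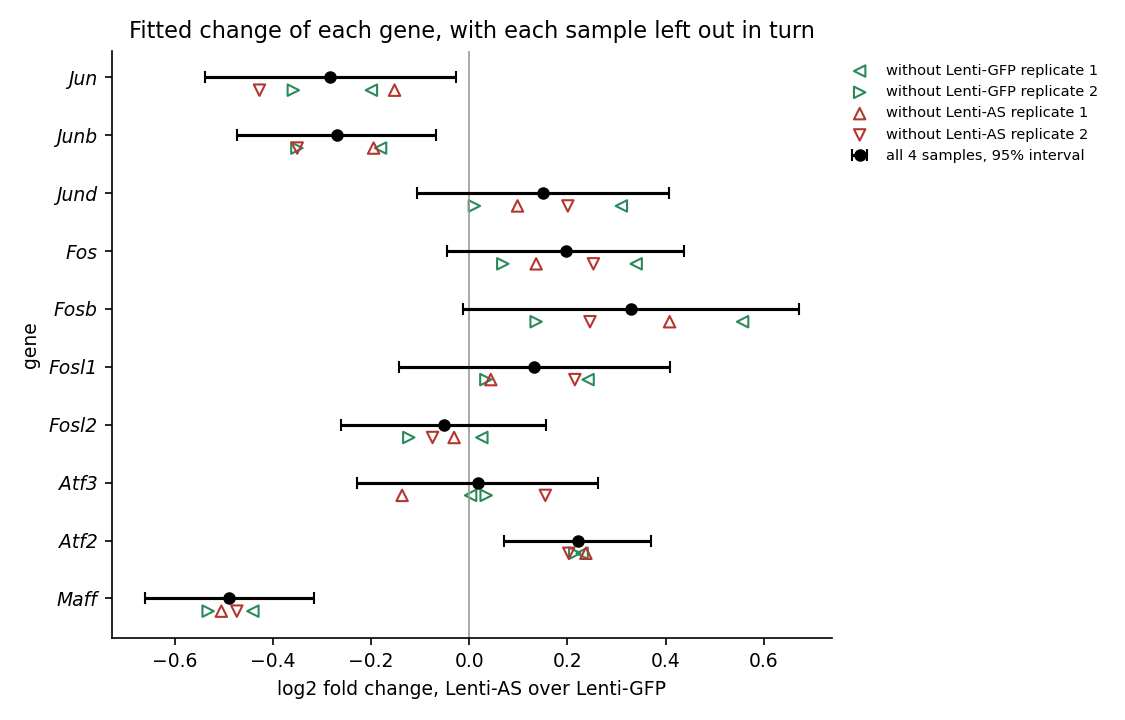
Fitted log2 fold change of Lenti-AS over Lenti-GFP (horizontal axis) for the 10 genes, with its 95% interval over all 4 samples (black) and the value with each sample left out (open symbols; green for a Lenti-GFP and red for a Lenti-AS sample). The intervals of Jun, Junb and Maff lie below 0 and that of Atf2 above 0, and of these Maff alone was called after adjustment over all genes. Before adjustment, 2716 of all 12446 genes had a p below 0.05 from edgeR's test.

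Over the 10 genes the fitted value was higher in Lenti-AS for 6 and lower for 4, with a median log2 fold change of 0.07, against 0.01 over all genes tested. In 3 genes both Lenti-AS samples lay above both controls (Fos, Fosb and Atf2) and in 3 both lay below (Jun, Junb and Maff), against 27.7% and 27.2% of all genes tested. Together the groups did not overlap in 6 of the 10 genes, near the 54.9% of all genes tested. For a single gene, an exact permutation test of 2 against 2 samples gave p = 0.333 (two-sided) at the least, which is the smallest that this design allows. The counts do not tell a change per cell from a change in the share of cells that express a gene.

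As c-Jun is paired with Fos proteins in many AP-1 dimers, the ratio of Fos to Jun counts within each sample was also taken, which does not depend on the scaling between libraries. Relative to the mean of the controls, the log2 ratio of Fos to Jun was 0.06 and -0.06 in the controls and 0.68 and 0.29 in Lenti-AS. For Fosb to Junb it was 0.13 and -0.13 in Lenti-GFP and 0.61 and 0.62 in Lenti-AS. In all 8 pairs of a Fos gene with Jun or Junb both Lenti-AS samples were above both controls, by a mean of 0.22 (Fosl2 to Junb) to 0.63 (Fosb to Jun). Of the 4 pairs with Jund, Fos to Jund was higher by 0.04, 2 overlapped and Fosl2 to Jund was lower by 0.21. The 12 pairs share genes and are not independent, and the size differed between the Lenti-AS samples by up to 0.45 (Fosl1 to Jun). Jun and Junb, close in pattern, were themselves lower in both Lenti-AS samples, so the 8 pairs in part restate that. How often the ratios of other pairs of genes separate in this way was not counted. No test was made of these ratios, which concern RNA and not dimers.

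**Figure D3:**
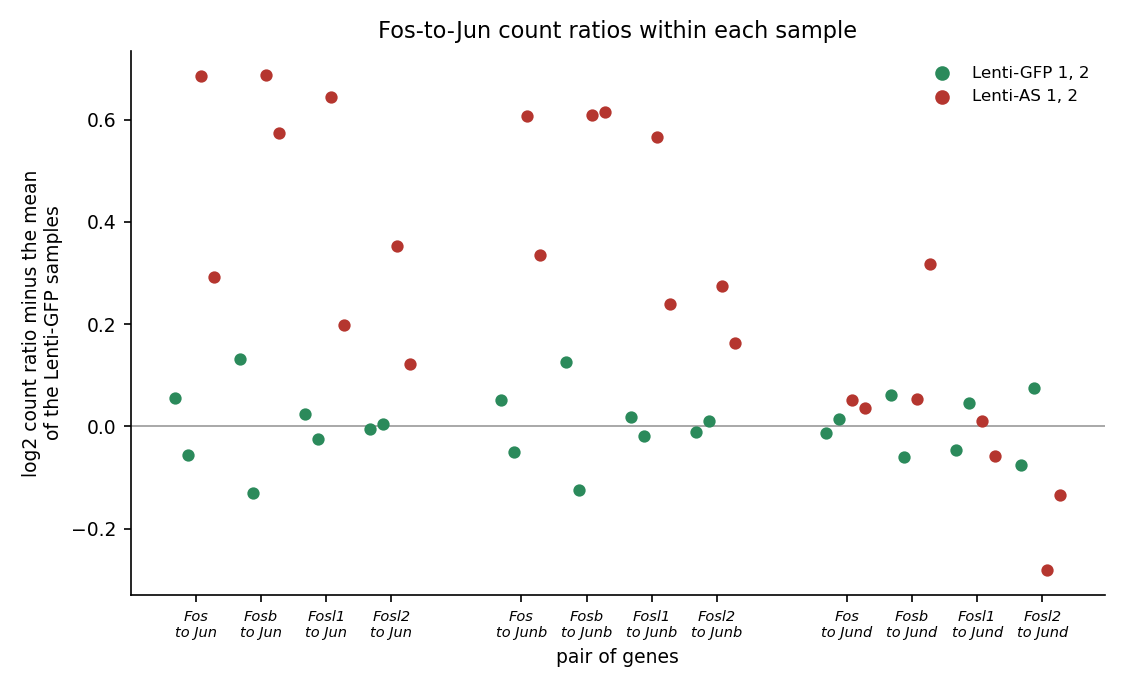
Log2 ratio of the counts of each Fos gene to each Jun gene, minus the mean of the Lenti-GFP samples (vertical axis), for 12 pairs (horizontal axis), with 1 point for each sample in the order of its replicate number (green Lenti-GFP, red Lenti-AS). The Lenti-AS points lie above the Lenti-GFP points in the 8 pairs with Jun or Junb and do so in 1 of the 4 pairs with Jund, by 0.04.

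The controls themselves differed in this family. Lenti-GFP 1 was above Lenti-GFP 2 in 9 of the 10 genes, Atf3 being the exception, with a median log2 difference of 0.16, whereas 50.2% of all genes tested were higher in Lenti-GFP 1, with a median of 0.00068. The same held for the immediate early genes, which like Fos respond within minutes to serum or growth factors. Of 33 such genes tested 31 were higher in Lenti-GFP 1, with a median log2 difference of 0.20, from 0.86 in Npas4 to -0.02 in Ccn2. Of the tested genes of the other lists, 25 of 35 other leucine zipper factors, 15 of 28 kinase inputs, 14 of 26 AP-1 targets, 12 of 23 repair SC genes and 9 of 21 Jun cofactors and turnover genes were higher in Lenti-GFP 1. Between the Lenti-AS samples no such common direction was seen, with 5 of 10 and 14 of 33 genes higher in Lenti-AS 1 against 50.7% of all genes tested. The pattern was noticed in the data and no test was made of it.

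**Figure D4:**
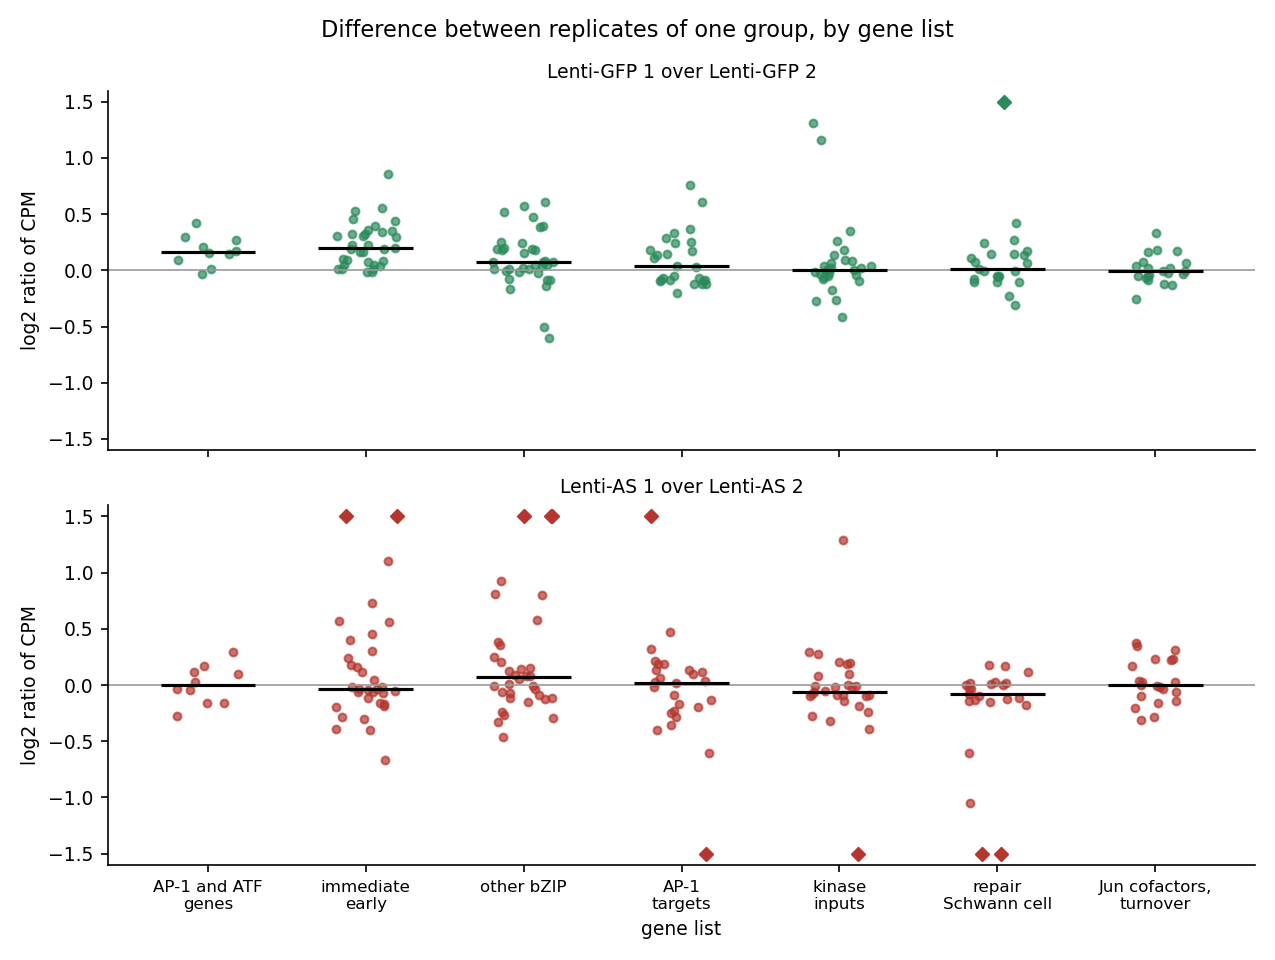
Log2 ratio of CPM between the 2 samples of one group (vertical axes; top Lenti-GFP 1 over 2, bottom Lenti-AS 1 over 2) for the tested genes of each list (horizontal axis), with a line at the median and diamonds for values beyond the axis. In the top panel the AP-1 and ATF genes and the immediate early genes lie almost all above 0, with medians of 0.16 and 0.20.

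Further genes of the pathway were read from 6 lists. Of the 165 different genes tested 7 were called (4.24%), 5 higher and 2 lower. Over all genes tested 1.98% were called, 1.31% higher and 0.667% lower. DESeq2 called 12 higher and 7 lower of the 148 list genes to which it gave an adjusted p, against 6.25% of all genes with one. The counts of each list below stand beside these shares, and no test of a list was made. The kinase inputs (28 tested) comprise the JNK, p38 and ERK kinases that act on AP-1 and the GADD45 proteins that activate their upstream kinases. By edgeR's test 1 of these rose and 0 fell. Gadd45a, a stress and DNA damage response gene, had 168 and 167 CPM in Lenti-GFP and 223 and 225 CPM in Lenti-AS (log2 fold change 0.42 by edgeR's test, adjusted p = 0.0252). The gap of 55.1 CPM was far wider than the 1.14 and 2.25 CPM within the groups. Gadd45b had a log2 fold change of 0.42 (adjusted p = 0.0577) and the ERK kinase gene Map2k1 one of -0.20 (adjusted p = 0.113), neither of which passed edgeR's test. DESeq2 called Gadd45a and also Gadd45b (adjusted p = 0.000240) higher.

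Among the immediate early genes (33 tested), 0 rose and 1 fell by edgeR's test, while DESeq2 called 1 higher and 4 lower. Gem, which encodes a small GTPase, fell from 21.3 and 21.5 CPM in Lenti-GFP to 15.4 and 15.7 CPM in Lenti-AS (log2 fold change -0.46 by edgeR's test, adjusted p = 0.0428). Ier3 had a log2 fold change of -0.43 (adjusted p = 0.0506) and Ccn1, which encodes a secreted matrix protein, one of -0.38 (adjusted p = 0.0905). DESeq2 called Gem, Ier3 (adjusted p = 2.17e-05), Ccn1 (adjusted p = 0.00128) and Ccn2 lower and Zfp36 higher. Of the other leucine zipper factors (35 tested) none was called by edgeR, and the smallest p-values belonged to Maf, Cebpb and Dbp, with log2 fold changes of 0.49, 0.54 and 0.30 (adjusted p = 0.0558, 0.0594 and 0.0788 from edgeR's test). DESeq2 called 2 of this list higher, Maf (adjusted p = 4.77e-05) and Cebpb (adjusted p = 0.00155). Maf, a large Maf protein gene with an activation domain, had 44.1 and 43.0 CPM in Lenti-GFP and 65.7 and 56.9 CPM in Lenti-AS, opposite in direction to the small Maf gene Maff.

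Of the AP-1 target genes (26 tested) 1 rose and 1 fell by edgeR's test. Tnc, which encodes the matrix protein tenascin C, fell 2.29-fold, from 1242 and 1214 CPM in Lenti-GFP to 482 and 588 CPM in Lenti-AS (log2 fold change -1.20 with a standard error of 0.10, adjusted p = 0.0144 by edgeR's test). Hmox1, the heme oxygenase gene that NRF2 also controls, rose from 23.0 and 25.0 CPM to 36.3 and 36.7 CPM (log2 fold change 0.60, adjusted p = 0.0252). Mt1, a metallothionein gene, had a log2 fold change of 0.73 (adjusted p = 0.0520). DESeq2 called Tnc, Hmox1, Mt1 (adjusted p = 0.000530) and, lower, Hbegf. This list had a median of 0.08.

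Among the repair SC genes (23 tested) 1 rose by edgeR's test, Pou3f1, which encodes Oct6, a factor of promyelinating SCs. It had 69.2 and 65.6 CPM in Lenti-GFP and 101 and 89.2 CPM in Lenti-AS (log2 fold change 0.50 by edgeR's test, adjusted p = 0.0481). Shh, which encodes a secreted signalling protein, had a log2 fold change of 0.61 (adjusted p = 0.0628) and did not pass edgeR's test. DESeq2 called Pou3f1 and Shh (adjusted p = 0.000614) higher and 1 gene of this list, not reported here, lower. The list's median was -0.07. Of the Jun cofactors and turnover genes (21 tested) 2 rose, both at an adjusted p = 0.0499 from edgeR's test. These were the coactivator gene Ncoa1, with a log2 fold change of 0.41, and the DNA repair gene Brca1, whose protein also binds Jun proteins, with 0.51. The coactivator gene Crebbp had 0.36 (adjusted p = 0.0845). DESeq2 called Ncoa1, Brca1 and Gsk3b higher. Both edgeR calls were lost with the erythroid genes left out (adjusted p = 0.0540 for Ncoa1 and 0.0502 for Brca1) and with limma-voom (0.0596 and 0.0525), and that of Ncoa1 also with a filter at 1 CPM (0.0510). The genes Ccn2, Zfp36, Hbegf and Gsk3b are named here after their values were seen.

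The calls of the lists depended on the libraries from which the spread was taken. Without Lenti-GFP 1 and without Lenti-GFP 2 the 7 called genes kept their direction. Their log2 fold changes were -1.18 and -1.21 for Tnc, 0.43 and 0.42 for Gadd45a and 0.54 and 0.46 for Pou3f1. Their calls were not kept in these fits, where the spread comes from the Lenti-AS pair alone and nearly all calls over all genes were lost. With the replicate number as a block Tnc alone of the 7 was called, when 17 of the 12446 genes tested were. Without Lenti-AS 1 or 2 the spread comes from the Lenti-GFP pair alone, and more of all genes were called, further list genes among them. Without Lenti-AS 1 and without Lenti-AS 2 the log2 fold changes were 0.39 and 0.59 for Maf and 0.54 and 0.55 for Cebpb. They were -0.43 and -0.44 for Ier3, 0.66 and 0.80 for Mt1 and 0.68 and 0.53 for Shh.

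**Figure D5:**
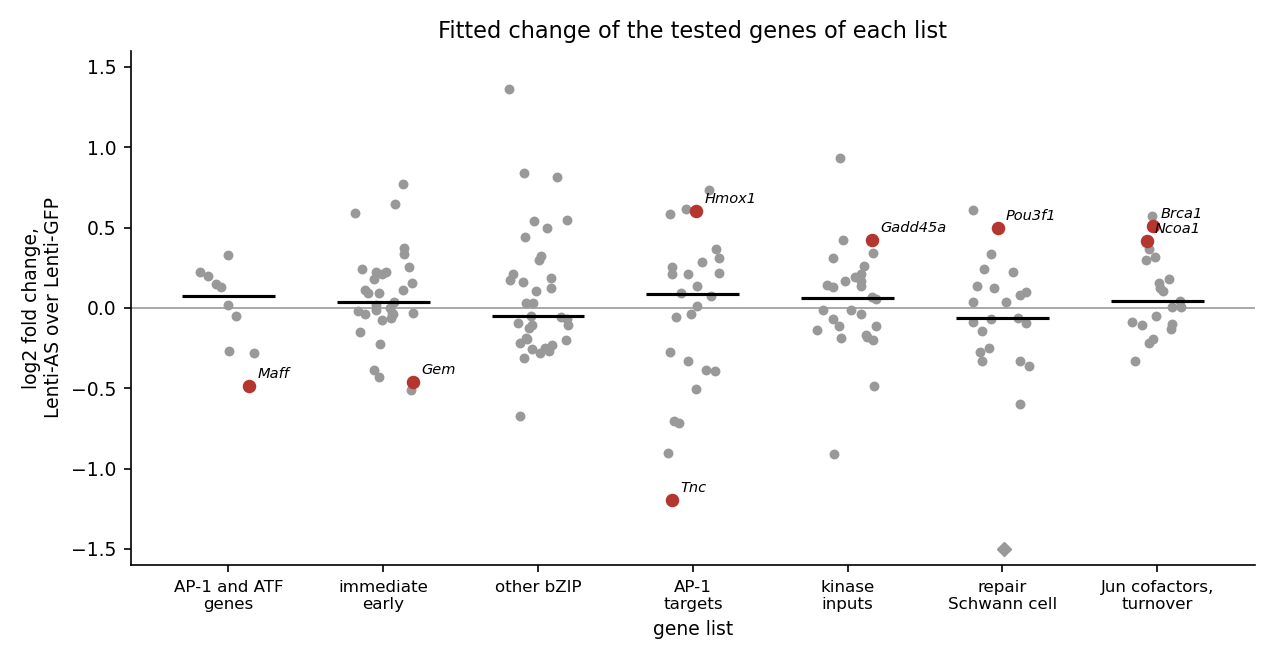
Fitted log2 fold change of Lenti-AS over Lenti-GFP (vertical axis) for the tested genes of each list (horizontal axis), with called genes in red and named, a line at the median and a diamond for the value beyond the axis. The medians lie between -0.07 and 0.08, and Maff, Gem and Tnc are the called genes below 0.

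Egr2, the gene opposite to Jun in SCs, was looked at outside the rule for named genes. Its row had 49.2 and 42.1 CPM in Lenti-GFP and 61.2 and 54.0 CPM in Lenti-AS (log2 fold change 0.33 by edgeR's test, adjusted p = 0.152). Both Lenti-AS samples lay above both controls. DESeq2 gave an adjusted p = 0.0336, but the change was less than 1.3-fold, so Egr2 was not called by either tool. Because the strand setting is not given, reads of an antisense RNA that overlaps its exons could be counted there, and whether any were was not tested.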

How the data were processed

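Read counts of 4 samples, 2 Lenti-GFP and 2 Lenti-AS, were analysed, with groups and replicate numbers taken from the sample titles. The authors deposited whole-number counts per gene without normalization, made from 50 bp paired-end reads by featureCounts over RefSeq exons of rn6. The aligner is hisat2 in the paper and GSNAP in the submitters' processing notes, and versions and strand setting are not given in the sources used here. A repeated header line (1) was dropped, leaving 17949 genes.

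Genes reaching 10 counts in 2 or more samples (12446) were tested in R 4.3.3 with edgeR 4.0.16 (TMM factors, glmQLFit with default settings, glmQLFTest, no covariates), with Benjamini-Hochberg adjustment over all of them. Alternatives were DESeq2 1.42.0, limma-voom (limma 3.58.1), other scalings, filters and cut-offs, a replicate block and leaving out each sample. Both cut-offs of a call are those of the paper. DESeq2 gave no adjusted p for 2413 genes. Standard errors come from the F statistic. The procedure was checked on simulated counts drawn with the same spread in both groups, so the check does not cover a spread that differs between the groups. Levels were not compared between genes, since exon lengths were not used here.

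The 10 genes and the lists, written from general knowledge, were chosen with earlier results of these data known. From each list every called gene is named, and if fewer than 3 were called, those with the smallest p up to 3, except for genes that are not reported here. No library was a copy of another, as chi-square per gene was 32.4 between the Lenti-GFP and 103 between the Lenti-AS replicates.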

Additional observations from a re-analysis of the deposited data

How the results depend on the processing

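Under the other scalings, filters and tools, the log2 fold changes of the 10 genes kept their direction, and Maff alone was called, except that no gene of the 10 was called with the replicate block (Maff -0.49, adjusted p = 0.0905) or with a 1.5-fold cut-off. No gene of the 10 was called higher in these fits. Scaled by library totals, Jun was at -0.25 and Fosb at 0.36, and the median of all genes was 0.04. The median of the 10 genes was 0.07 to 0.11.

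Leaving out 1 sample moved more. Atf3 turned to -0.14 without Lenti-AS 1, and Fosl2 turned to 0.0257 without Lenti-GFP 1. Over the 4 such fits the range was -0.14 to 0.16 for Atf3 and -0.12 to 0.0257 for Fosl2, 0 to 1 of the 10 genes were called higher (Fosb, without Lenti-AS 1) and 0 to 2 lower (Maff, and Jun without Lenti-AS 2), 3 to 6 genes lay above the controls and 3 to 4 below, and the median of the 10 was 0.0066 to 0.18. Of the list genes, 0 to 30 were called higher and 0 to 9 lower, and of all genes 0 to 1260 higher and 1 to 278 lower. Without Lenti-GFP 1 or 2 the spread comes from the Lenti-AS pair alone, and without Lenti-AS 1 or 2 from the Lenti-GFP pair, the lone sample being assumed to vary like the other group. Groups also lie apart more readily when one of them holds a lone sample. The share of all genes that lay above or below the controls in these fits was not counted, so no weight is put on those counts.

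Counts of called genes, 163 higher and 83 lower over all genes and 5 and 2 over the lists, were 488 and 139, and 12 and 7, with DESeq2, 81 and 43, and 1 and 1, with a 1.5-fold cut-off, and 3 and 14, and 0 and 1, with the replicate block. Without a low-count filter 9 list genes were called higher. Of the 17 genes called with the block, 16 were among the 246. Nothing in the labels ties equal replicate numbers to one culture, and deviations from the group means had a correlation of -0.012 between samples of equal number (across genes, which are not independent replicates). With the block, fewer degrees of freedom remain. For the remaining changes the cause was not tested.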

Other observations

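Egr1, Egr3 and Npas4, immediate early genes like Fos, were highest in Lenti-AS 1, and were singled out after their values had been seen. Egr1, a zinc finger factor induced by growth factors, had 81.9 CPM in Lenti-AS 1 and 24.2 CPM in Lenti-AS 2, against 39.4 and 31.2 CPM in the Lenti-GFP samples. Egr3 had 35.4 and 16.5 CPM in the Lenti-AS samples and 18.0 and 12.4 CPM in the controls. Npas4 had 5.58 and 1.20 CPM in the Lenti-AS samples and 3.76 and 2.08 CPM in the controls. Fos, which is induced by the same stimuli, was at 816 and 753 CPM in Lenti-AS and did not show this gap. In the same library Sox10 had 163 CPM against 61.2 CPM in Lenti-AS 2 and 72.6 to 77.1 CPM in the controls. Whether one difference between the libraries underlies these values was not tested.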
